A study of Homo sapiens with 4 samples.

Results

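A375, an established line of human melanoma cells with mutant BRAF, was profiled by ChIP-seq for H3K27ac, the acetylated form of histone H3 found at promoters and enhancers in use. Described here are the regions assigned to the acetyl-lysine reader genes BRD2 and BRD3 and to HEXIM1, a marker of their activity. They were found as every line of the authors' deposited table that carried 1 of these symbols. That gave 5 regions of 91107 in all: 2 at BRD2, 2 at BRD3 and 1 at HEXIM1. The labels give 2 libraries from cells kept in 1 mM octanoate, a medium-chain fatty acid, and 2 from cells given isopropanol, its vehicle, each for 48 hours. All libraries came from this cell line, with no genetic change named in the labels, and nothing in the labels says whether the libraries of a group came from separate cultures.

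BRD2 and BRD3 belong to the BET family, whose members bind acetylated lysines on histone tails through paired bromodomains and bring the transcription machinery to acetylated chromatin. One partner of this family is P-TEFb, the kinase that releases paused RNA polymerase II into elongation, and HEXIM1 holds P-TEFb inactive in a particle built on the 7SK RNA. HEXIM1 transcripts usually rise when BET proteins are inhibited, for which reason HEXIM1 serves as a marker of BET activity in melanoma and other cells. The table analysed gives acetylation beside these genes and no transcript or protein level.

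For each region the authors' deposited table gives a mean level in normalized units, a log2 fold change with the standard error (SE) of the authors' model, and p-values. It gives no value per library, so depth and the spread between replicates are unknown, and the numerator of the fold change is not named. Changes are therefore called positive or negative, and not gains or losses under octanoate. The authors' deposited table holds an adjusted p-value below 1 for 36436 regions, called tested here, of which 9996 lay at a gene start (a distance of 0 to the assigned gene in that table). Fold changes of tested regions had a median log2 value of 0.32 in the authors' deposited table, with 87.3% positive, so the start regions of the 3 genes are also given against that median. Of the 8 melanocyte lineage markers examined, 4 had a tested region at their start in the authors' deposited table (SOX10, PMEL, MITF and S100B), and MLANA, TYR, DCT and TYRP1 had none. The same was true of 0 of 4 blood, 1 of 4 epithelial (EPCAM) and 1 of 4 fibroblast markers (LUM). Regions away from starts were left out of these counts. With them, the highest level at the blood marker PTPRC was 408 in the authors' deposited table, beside 370 for MITF and 774 for SOX10.

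Of the 5 regions, 3 were tested, and each of these lay over the start of its gene. None of the 3 was called at an adjusted threshold of 0.05 in the authors' deposited table, whose column names are those of DESeq2, and 0 of the 3 had an unadjusted p-value below 0.05. Over all tested regions of the authors' deposited table, 1.67% were called at that adjusted threshold. Without adjustment, 18.4% passed 0.05 (17.9% positive and 0.475% negative). At gene starts of the authors' deposited table the shares were 0.860% adjusted and 19.2% unadjusted. With 3 tested regions, a count of 0 is near this background. On the log2 scale of the authors' deposited table the median change of the 5 regions was 0.15, and so was that of the 3 tested ones, beside 0.35 over all tested regions at starts.

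**Figure D1:**
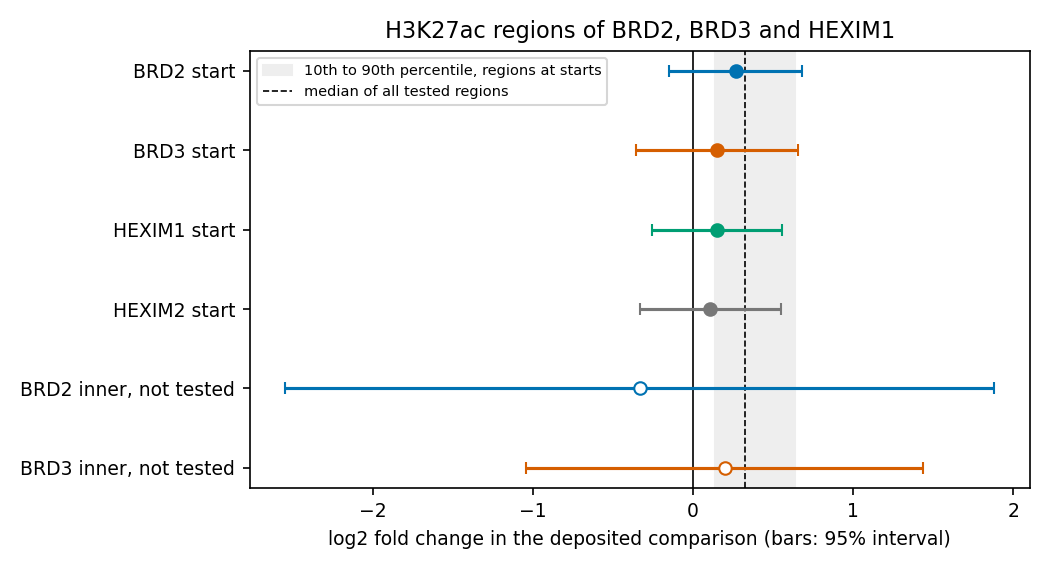
Horizontal axis, log2 fold change in the deposited comparison; points are regions, bars are 95% intervals from the authors' standard errors, open points were not tested, HEXIM2 is the paralog of HEXIM1, the dashed line is the median of all tested regions (0.32) and the grey band runs from the 10th to the 90th percentile of tested regions at starts (0.14 to 0.63). The intervals of the 3 member starts all include 0 and the dashed line, and those of the inner regions of BRD2 and BRD3 are wider.

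HEXIM1 was the most densely acetylated of the 3 genes. Its region (chr17:45146450-45152810, hg38, coordinates as in the table) covered 6360 bases and took in the whole gene, 3625 bases on the plus strand in the RefSeq gene table of GRCh38.p14, with 2025 further bases before its start. The mean level in the authors' deposited table was 303, or 47.6 per kb of region. On the per-kb scale this lay at percentile 99.0 of tested regions at starts. The authors' deposited table gives it a log2 fold change of 0.15 with an SE of 0.21 (95% interval -0.26 to 0.56, a ratio of 0.837 to 1.47). Before adjustment its p-value was 0.469 and after it 0.653, as the authors' deposited table gives them. Acetylation over the gene used as the marker of BET activity thus did not pass the test, and the interval contains both a moderate positive and a smaller negative change. Against the median of tested regions the log2 value was -0.17, and it lay at percentile 11.5 of tested regions at starts. At the SE of this region, a log2 change of 0.69 in size, or 1.62-fold, would have been needed for a call in the authors' deposited table.

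The promoters are shown because each tested region covers one, so that the letters under the acetylated chromatin can be compared between genes. RefSeq windows of 300 bases (GRCh38.p14, 250 before a start and 50 from it on) matched 3 of 3 genes: 1 window for HEXIM1, 1 for BRD3 and 4 for BRD2. The letters GGGCGG, a GC box, are in capitals on either strand. Also in capitals are the core letters of a TATA box, described next, and the longest run shared by the HEXIM1 and BRD3 windows. The HEXIM1 window is chr17:45148225-45148524 on the plus strand.
HEXIM1: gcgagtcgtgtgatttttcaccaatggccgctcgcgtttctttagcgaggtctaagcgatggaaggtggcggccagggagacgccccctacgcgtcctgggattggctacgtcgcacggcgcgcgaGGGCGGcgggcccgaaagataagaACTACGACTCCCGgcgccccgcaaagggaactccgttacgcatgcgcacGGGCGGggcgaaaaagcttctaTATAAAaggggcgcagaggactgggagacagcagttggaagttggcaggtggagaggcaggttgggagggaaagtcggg

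The letters TATAAA of a TATA box began 29 bases before the HEXIM1 start, and no window of BRD2 or BRD3 held these letters on either strand. They occurred in 11.5% of 35116 RefSeq promoter windows. CCAAT was found at 2 places in the HEXIM1 window (1 on each strand) and in 34.6% of all windows, and the BRD2 and BRD3 windows did not hold it. The E box letters CACGTG, present in 7.26% of all windows, were in none of the 6 windows of the 3 genes. The ratio of observed to expected CpG pairs in the HEXIM1 window was 1.17, at percentile 99.0 of all windows.

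BRD3 carried the weakest of the 3 start regions in total and per kb. The region (chr9:134065545-134069339) covered 3794 bases, of which 791 lay before the gene's outermost start in the gene table, on the minus strand, and it took in 7.85% of the 38244 bases of the gene. Its mean level in the authors' deposited table was 113, or 29.7 per kb, at percentile 68.4 of tested regions at starts on the per-kb scale. In the authors' deposited table its log2 fold change was 0.15 with an SE of 0.26 (95% interval -0.36 to 0.66, a ratio of 0.780 to 1.57), and the adjusted p-value was 0.726. Against the median of tested regions it was -0.18, at percentile 11.2 of tested regions at starts. A log2 change of 0.86 in size (1.82-fold) would have been needed for a call.

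The BRD3 window is chr9:134067977-134068276 on the minus strand, printed in the direction of the gene. It is built on a start inside the gene, since the outermost start in the gene table is at chr9:134068548.
BRD3: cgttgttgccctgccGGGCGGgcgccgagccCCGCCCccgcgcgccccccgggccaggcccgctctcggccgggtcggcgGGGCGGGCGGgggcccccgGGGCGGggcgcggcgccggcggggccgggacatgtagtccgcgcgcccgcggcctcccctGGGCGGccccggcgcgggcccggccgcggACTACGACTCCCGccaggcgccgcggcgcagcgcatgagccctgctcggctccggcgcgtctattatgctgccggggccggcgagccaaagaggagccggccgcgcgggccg

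The window was 85.0% G and C, at percentile 99.7 of all windows, and held GGGCGG at 6 places, of which the pair 170 and 166 bases before the start overlap. The HEXIM1 window was 62.0% G and C and held GGGCGG at 2 places, and 44.95% of all windows held it. The longest run of bases common to the HEXIM1 and BRD3 windows was ACTACGACTCCCG, 13 bases in the same direction as each gene. It began 100 bases before the HEXIM1 start and 62 bases before the BRD3 start on which the window is built, and overlapped none of the other marked letters. On either strand, 9 of the 35116 windows held it (0.0256%), and no BRD2 window did. The run was found by comparing these windows after the members were known, and only exact matches were counted. It is a description of the letters, and whether a factor binds it was not tested.

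The second BRD3 region (chr9:134056264-134056524) lay inside the gene, 12024 bases from its outermost start, and was 260 bases wide. Its mean level in the authors' deposited table was 7.26, too low for an adjusted p-value. For this region the authors' deposited table has a log2 fold change of 0.20 with an SE of 0.63 (95% interval -1.04 to 1.44, unadjusted p-value 0.754). That interval includes a log2 change of 1 in either direction.

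BRD2, which lies among the class II genes of the major histocompatibility complex, carried the broadest of the 5 regions. It spanned 10843 bases (chr6:32966666-32977509), wider than 97.1% of tested regions at starts, with 1928 bases before the outermost start and 69.1% of the gene's 12912 bases. All 4 RefSeq starts of BRD2 fell within it, so a change at any single start cannot be told apart from one at the others. The mean level in the authors' deposited table was 358, the highest of the 5, but per kb it was 33.0, or 0.693 times the HEXIM1 density and 1.11 times that of BRD3. According to the authors' deposited table it had a log2 fold change of 0.27 with an SE of 0.21 (95% interval -0.15 to 0.68, a ratio of 0.901 to 1.61). Its p-values there were 0.211 unadjusted and 0.452 adjusted, the smallest of the member regions in each case. Against the median of tested regions the value was -0.06, at percentile 30.9 of tested regions at starts, and a log2 change of 0.71 in size (1.64-fold) would have been needed for a call.

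The first and the last of the 4 BRD2 windows, on the plus strand at chr6:32968344-32968643 and chr6:32972834-32973133, are shown because they are the outermost promoters under this broad region.
BRD2 first start: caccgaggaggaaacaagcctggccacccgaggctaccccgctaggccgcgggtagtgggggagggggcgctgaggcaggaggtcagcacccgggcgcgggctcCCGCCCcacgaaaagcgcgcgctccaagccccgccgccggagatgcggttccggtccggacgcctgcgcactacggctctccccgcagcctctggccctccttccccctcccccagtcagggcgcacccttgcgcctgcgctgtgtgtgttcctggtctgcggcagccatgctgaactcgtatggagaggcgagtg
BRD2 last start: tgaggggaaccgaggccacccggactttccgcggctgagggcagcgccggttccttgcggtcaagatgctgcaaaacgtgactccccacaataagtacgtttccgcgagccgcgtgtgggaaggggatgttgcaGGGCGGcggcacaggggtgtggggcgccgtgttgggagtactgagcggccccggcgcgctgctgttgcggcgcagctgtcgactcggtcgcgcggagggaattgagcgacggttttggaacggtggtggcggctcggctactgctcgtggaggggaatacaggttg

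The first window was 71.7% G and C with an observed to expected CpG ratio of 0.780, and the last was 66.0% G and C with a ratio of 1.11, at percentile 97.6 of all windows. The second window was 64.3% G and C with a ratio of 0.529, the lowest of the 4, and the third, at 50.3%, had the least G and C and a ratio of 0.8995. GGGCGG occurred 1 time in the first, 1 time in the second and 1 time in the last BRD2 window, and the third did not hold it.

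A second BRD2 region of 250 bases (chr6:32978940-32979190) lay inside the gene, 10346 bases from its outermost start. The authors' deposited table gives it a mean level of 2.63, the lowest of the 5, and a log2 fold change of -0.33 with an SE of 1.13 (95% interval -2.55 to 1.88, unadjusted p-value 0.768). It was the only negative value among the 5 and was not tested.

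The 3 start regions were compared with each other in 3 pairs, with the errors of the authors' model taken as independent between regions. BRD2 minus BRD3 was 0.12 on the log2 scale (95% interval -0.54 to 0.77), BRD2 minus HEXIM1 was 0.12 (-0.47 to 0.70) and BRD3 minus HEXIM1 was -0.0021 (-0.65 to 0.65). Each interval includes 0 and also differences of more than 0.4 in either direction, so the order of the fold changes is not resolved. Levels had no error of their own in the table.

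**Figure D2:**
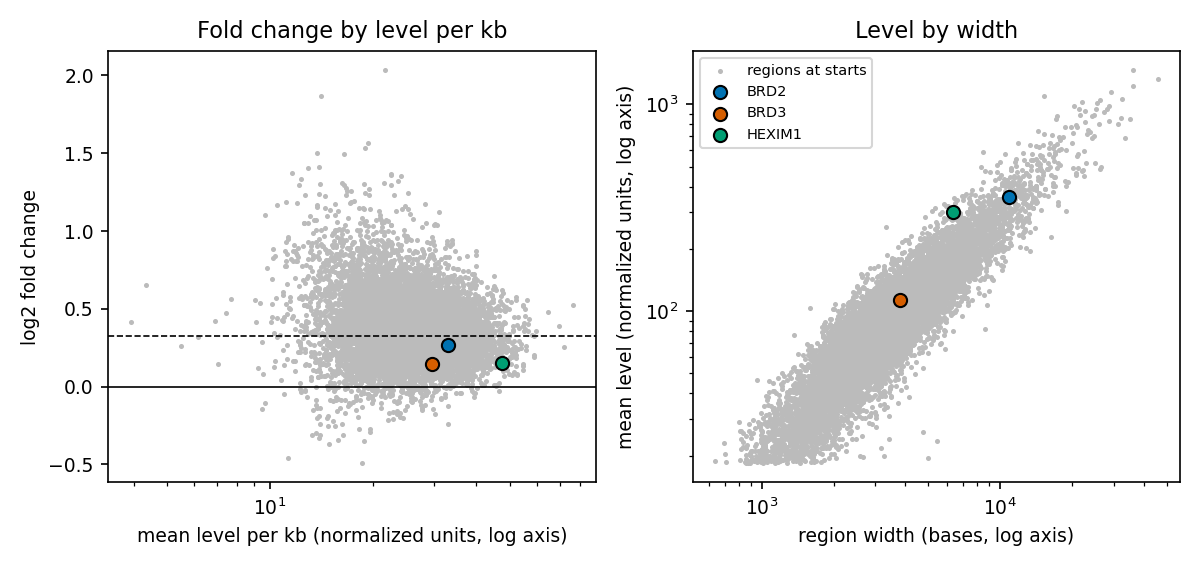
Left, log2 fold change against mean level per kb (log axis), with lines at 0 and at the median of all tested regions; right, mean level against region width (both log axes). Grey points are the 9996 tested regions at starts; HEXIM1 stands near the upper end of level per kb (47.6), and all 3 genes lie below the dashed median in fold change.

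HEXIM2, the paralog of HEXIM1 that also inhibits P-TEFb, starts close by on the same strand, and its start region (chr17:45159759-45163227) began 6949 bases after the HEXIM1 region ended. Its density in the authors' deposited table was 49.1 per kb, so that HEXIM1 had 0.970 times the density of HEXIM2. It had a log2 fold change of 0.11 with an SE of 0.22 in the table the authors deposited (adjusted p-value 0.769), and HEXIM1 minus HEXIM2 was 0.04 (95% interval -0.56 to 0.64). The interval does not show that the paralogs moved alike, since it runs more than 0.5 to either side of 0. Of the 9 regions assigned to HEXIM2, 2 were tested, 0 were called and 0 had an unadjusted p-value under 0.05 in the authors' deposited table. Over all tested regions those shares were 1.67% and 18.4%, and with 2 tested regions a count of 0 is near them.

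The surroundings of the 3 starts were taken as all regions within 100 kb of the start region. Around BRD2, 4 other regions were tested, with log2 fold changes from 0.39 to 0.53 in the authors' deposited table, each above the 0.27 of BRD2 itself, and none was as strongly acetylated in total level. They were assigned to TAP1, HLA-DMB, HLA-DMA and HLA-DPA1, genes of antigen processing and presentation. Around BRD3, the 4 other tested regions ran from 0.15 to 0.30 in the authors' deposited table, again each above BRD3 (0.152 at the lowest against 0.148), and 2 of them had a higher level. These included the start of WDR5, a subunit of histone H3 lysine 4 methyltransferase complexes, at 0.25 with an SE of 0.35.

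The HEXIM1 surroundings held 13 other tested regions, all positive, from 0.11 to 0.79 on the log2 scale in the authors' deposited table, with a median of 0.34. Over all tested regions 87.3% were positive and the median was 0.32. Of the 13, 11 had a larger fold change than HEXIM1, which itself lay at percentile 11.5 of tested regions at starts. Beside 1.67% of all tested regions, 1 of these neighbouring regions was called. It was assigned to FMNL1, a formin that acts on actin filaments, lay 78.7 kb from the centre of the HEXIM1 region and had a log2 fold change of 0.79 with an SE of 0.22 (adjusted p-value 0.0362) per the authors' deposited table. The BRD2 and BRD3 starts lay at percentiles 30.9 and 11.2, so most tested regions at starts exceeded each of the 3 members. Differences between these neighbours and the members were not tested.

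**Figure D3:**
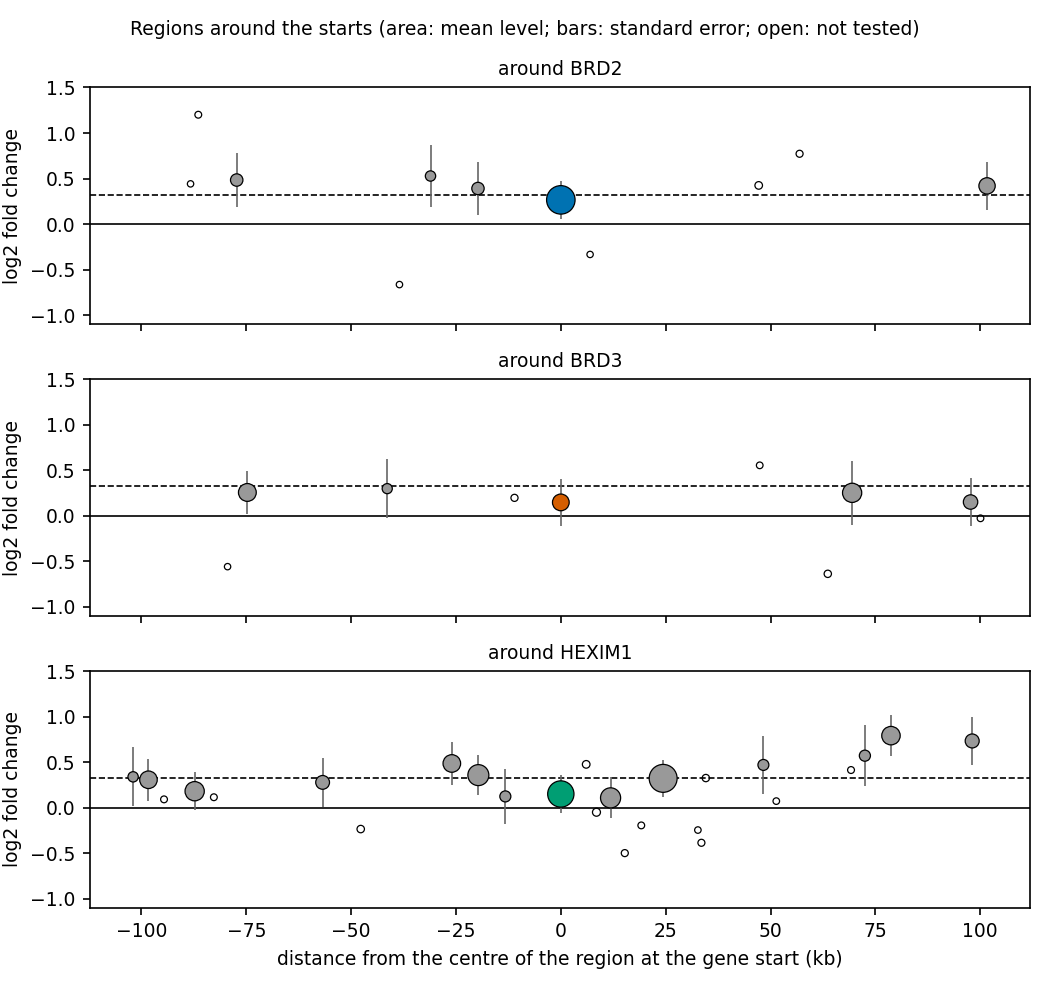
Log2 fold change (vertical axis) of all regions within 100 kb of each member's start region, by distance from its centre in kb. Coloured points are the member starts, grey points other tested regions with bars of 1 standard error, open points regions not tested; point area grows with mean level, and the dashed line is the median of all tested regions. The 13 grey points around HEXIM1 are all above 0, beside 87.3% of all tested regions, with the highest at 0.79 near the right edge.

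The wider pathway was taken from 6 lists of 77 genes, with 376 regions of which 156 were tested. In these 156 regions, 0 passed the adjusted threshold in either direction in the authors' deposited table, beside 1.65% positive and 0.0192% negative calls among all tested regions. An unadjusted p-value under 0.05 was found for 27 of the 156 (17.3%), close to the 18.4% of all tested regions. Their median log2 change in the authors' deposited table was 0.33, beside 0.32 for all tested regions.

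P-TEFb and its 7SK particle, the direct partners of HEXIM1, had the lowest median of the 6 lists. Its 8 tested regions beside 6 genes had a median of 0.19 (log2) in the authors' deposited table, with 0 calls and 0 unadjusted p-values under 0.05. Over all tested regions those shares were 1.67% and 18.4%. The largest value was at the start of CDK9, the kinase subunit, at 0.33 with an SE of 0.25, and the smallest at a region 5624 bases, by the table's distance, from the start of CCNT1, a cyclin of that kinase, at -0.13 with an SE of 0.37.

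Factors of polymerase pausing and the super elongation and PAF1 complexes held 44 tested regions beside 21 genes, with a median log2 change of 0.37 in the authors' deposited table. Of these, 9 (20.5%) had an unadjusted p-value under 0.05, all positive, beside 18.4% of all tested regions (17.9% positive). EAF1, a partner of the ELL elongation factors, had the largest value, 0.75 with an SE of 0.27 (adjusted p-value 0.121 per the deposited table of the authors). That region lay at a distance of 35763 bases, and the EAF1 start was at 0.37 with an SE of 0.26. CDC73, a PAF1 complex subunit, had the smallest, -0.29 with an SE of 0.22, at a distance of -60751 bases. The CDC73 start was at 0.12 with an SE of 0.22. The partners of the BET extraterminal domain had 13 tested regions beside 7 genes, 2 of these genes found under older symbols, and a median of 0.32 in the authors' deposited table. Values ran from -0.01 at the start of ATAD5 to 0.64 at a region assigned to NSD2, a histone H3 lysine 36 methyltransferase. Of the 13 regions, 2 (15.4%), both positive, had an unadjusted p-value under 0.05.

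Among the other bromodomain genes, 65 tested regions beside 32 of the 33 genes had a median log2 change of 0.35 in the authors' deposited table. An unadjusted p-value under 0.05 was found for 16 of them (24.6%), all positive, beside 18.4% of all tested regions. Of these 16, 6 belonged to ZMYND8, and without that gene the count was 10 of 55 (18.2%) with a median of 0.31. The largest value belonged to TRIM33, a chromatin-binding regulator of TGF-beta signalling, at 1.20 with an SE of 0.40 in the authors' deposited table. There its adjusted p-value of 0.0886 was the smallest of all 6 lists. The region lay at a distance of 54528 bases, and its mean level was 19.4. Regions without an adjusted p-value reached a level of 18.44, so it was near that floor. The TRIM33 start, with a level of 147, was at 0.29 with an SE of 0.24. A region assigned to PBRM1, a subunit of a SWI/SNF complex, had the lowest value, -0.33 with an SE of 0.31. YEATS and double PHD finger readers, which bind acyl-lysines through other folds, had 23 tested regions beside 7 genes and a median of 0.22 in the authors' deposited table. Their range was from -0.27 at a DPF3 region to 0.73 at a region of MLLT3, which is also on the elongation list. Of the 23, 2 (8.70%) had an unadjusted p-value under 0.05, beside 18.4% of all tested regions, and both were assigned to MLLT3. DPF3 gave more of the 23 regions than any other gene, most of them away from its start. The median and the share therefore lean on that gene, and they were not computed without it. Tested start regions of this list ran from 0.16 at DPF3 to 0.67 at MLLT3.

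Genes reported beside HEXIM1 as response markers of BET inhibitors formed the last list, of which 5 of 6 genes had regions and CCR2 was not analysed here. The 20 tested regions had a median log2 change of 0.39 in the authors' deposited table, with 0 calls. Unadjusted p-values under 0.05 were found for 6 of them (30.0%), beside 18.4% of all tested regions. All 6 belonged to ZMYND8, a bromodomain protein that is also on the bromodomain list, for which 10 regions were tested, each positive, with a median of 0.43 in the authors' deposited table. The smallest value was -0.53 with an SE of 0.33, at a region assigned to CD180. Regions of 1 gene share their surroundings, so the ZMYND8 regions do not stand for separate genes. Without them, 0 of the other 10 tested regions had an unadjusted p-value under 0.05 and the median was 0.24.

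**Figure D4:**
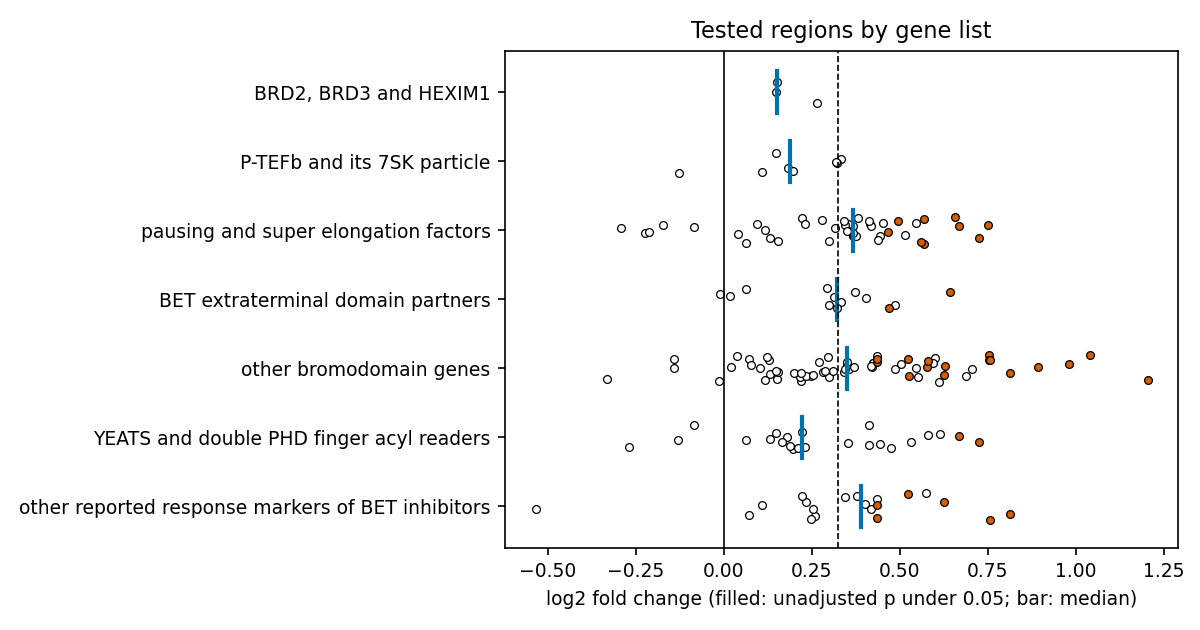
Log2 fold change (horizontal axis) of tested regions of the 3 genes and of each pathway list; each point is a region, filled where the unadjusted p-value is under 0.05, blue bars are medians and the dashed line is the median of all tested regions (0.32). The 3 members and the P-TEFb list have the lowest medians, 0.15 and 0.19, and no filled point lies below 0.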

How the data were processed

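H3K27ac was measured by ChIP-seq in 4 A375 libraries, 2 per treatment. Per the submitters' processing notes, the genome build was hg38 and the tools included Bowtie2, MACS2, featureCounts, DESeq2 and bedtools 2.29.1, with no settings given. The file analysed is the authors' deposited table of 1 comparison. Per the file headers, the mean level is a signal that the authors normalized, with the scaling not named. Fold changes and SEs are on the log2 scale, per the file headers. The score in the deposited table equals the fold change over its SE, and the deposited p-value is its two-sided normal p-value (largest difference 2.89e-15). Adjusted p-values are Benjamini-Hochberg values over 36436 regions; the value 1 elsewhere was read as not computed. The planned edgeR test across libraries was not run, because the table holds no value per library; 0 columns of single libraries were left out.

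Intervals are 95% normal intervals from the SE of the authors' model. Spread between libraries enters them only through that SE, and it could not be measured apart from it. Levels per kb divide the mean level by region width. The size needed for a call multiplies the SE by 3.34, the statistic at the largest unadjusted p-value of any call (0.000831). Percentiles are among tested regions at starts. Coordinates are as in the table; gene models and promoter windows are RefSeq, GRCh38.p14. Centring subtracts a median from all fold changes and recomputes p-values; it was tested on simulated data. All regions of the 3 genes, the regions of largest and smallest fold change per list, any call and HEXIM2 were named by rule; ZMYND8's regions, the markers and the neighbours within 100 kb were chosen for description, the neighbours after values were seen. The members and lists were chosen with earlier results of these data known. Python 3.11.15, pandas 2.3.3 and scipy 1.17.1 were used.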

Additional observations from a re-analysis of the deposited data

How the results depend on the processing

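With 12 other settings, 69 values were recomputed, of which 59 kept their direction and their side of the threshold. Settings were an adjusted threshold of 0.01, a minimum size of 1 on the log2 scale, adjustment over all distinct regions or all lines, mean levels of at least 10 or 100, regions at distance 0 only and centring on either of 2 medians; tested regions only, current symbols only and the lists without ZMYND8 were added after seeing the data. The count of calls at BRD2, BRD3 and HEXIM1 was 0 in the 9 settings in which it was recomputed, and that in the 6 pathway lists was 0 in 11. A stricter threshold, a minimum size, a level filter or a subset of regions or genes could only keep a count of 0. In the pathway lists, only the other adjustments and the centrings could have added a call. At BRD2, BRD3 and HEXIM1 only the centrings could have done so. Their smallest unadjusted p-value in the authors' deposited table was 0.211, at the BRD2 start. A Benjamini-Hochberg value is never below the unadjusted one, so the other adjustments could not have brought these regions under 0.05. Outside centring, the fold change of each single region is the same number in every setting, so its direction could not change. The other 10 values turned negative on centring, which subtracts a positive median by construction. On the median of tested regions, the median of the 5 regions became -0.173, HEXIM1 -0.173, the BRD3 start -0.175, its inner region -0.125 and the BRD2 start -0.0575. On the median of all distinct regions these were -0.129, -0.129, -0.131, -0.0813 and -0.0134. After the first of these centrings, 0.124% of all tested regions were called. The inner BRD2 region stayed negative in both. No paired analysis was possible because single libraries have no values in the file; leaving out libraries and DESeq2 on counts were not run for the same reason.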
